A study of Mus musculus with 8 samples.

Results

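Genes for synaptic adhesion molecules and unclustered cadherins were followed in total RNA from the nucleus accumbens (NAc) and the medial prefrontal cortex (mPFC) of mice. They were selected by symbol (Nrxn, Nlgn, Lrrtm, Slitrk, Lrfn, Flrt, Tenm, Cntn, Cntnap, and numbered Cdh and Pcdh genes) together with a minimum of 50 counts summed over the 8 libraries. Among 33885 listed symbols, 75 matched, and 66 of these reached the minimum. They fall into 13 families. The 13 type II classical cadherins, 11 non-clustered protocadherins, 7 CNTNAP genes, 6 contactins and 6 SLITRK genes are the most numerous. There are also 4 teneurins, 4 type I classical cadherins, 4 atypical cadherins, 3 neurexins, 3 neuroligins, 3 LRFN genes, 1 LRRTM gene and 1 FLRT gene.

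All mice were adult C57Bl6J males. NAc tissue came from mice that had explored a conditioned place preference chamber with cocaine at 7.5 mg/kg, given intraperitoneally, and from mice left in the home cage. mPFC tissue came from mice defeated by an aggressive male CD1 mouse and from home-cage mice, with tissue dissected 15 min after either experience. Each of the 4 groups had 2 libraries, and none of them was labelled as saline-injected, so injection, chamber and drug cannot be told apart. Whether both libraries of a group are from separate animals is not stated in the labels. All p-values are therefore set against the spread between libraries of the same group, which may be technical. The test estimates this spread over all groups compared and draws each gene's value toward those of the other genes.

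Adhesion molecules of these families span or line the synaptic cleft and the axon surface. Neurexins on the presynaptic side bind neuroligins, LRRTM proteins and secreted organizers, whereas SLITRK and LRFN proteins on the postsynaptic side bind receptor tyrosine phosphatases. Teneurins and FLRT proteins bind latrophilins, contactins pair with CNTNAP proteins along the axon, and classical cadherins bind mostly their own kind and are linked to actin by catenins. In the forebrain the combinations in which cadherins and protocadherins are expressed differ between cortical layers, areas and nuclei.

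Library totals ran between 111901829 and 179479978 counts, and the 66 genes held between 2.09% and 2.30% of each. The genes were long and well covered. Their median span on GRCm38 was 161.5 kb, against 23.1 kb over the 18519 symbols with at least 50 counts and coordinates, and 28.8% of them (19 genes) were over 500 kb, against 1.22% of all such symbols. Their median total was 167845 counts, against 12027 counts over all 18979 symbols with at least 50. The 6 genes with the fewest counts, Cdh3, Cdh16, Cdh26, Pcdh12, Cdh1 and Slitrk6, had 115 to 1080 over the 8 libraries.

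The 9 matching symbols below the minimum were mostly genes that lie inside another gene. Cdh15, the muscle cadherin, was listed at 0 in all 8 libraries, and Cdh17, an intestinal and liver cadherin, had 38 counts in all. The other 7 were listed at 0 in every library and each lies wholly within a larger gene on the opposite strand. Lrrtm1 (chr6:77242689-77257791) lies in Ctnna2, Lrrtm2 in Ctnna1 and Lrrtm3 (chr10:63928472-64090277) in Ctnna3, which encode alpha-catenins. Flrt1 (chr19:7092001-7105729) lies in Macrod1, Flrt3 (chr2:140650914-140671469) in Macrod2, Lrfn1 (chr7:28451980-28468242) in Samd4b and Lrfn4 (chr19:4611785-4615667) in Pcx. Over all protein-coding genes of the tables, 493 of 493 that lie wholly inside another gene on the opposite strand were at 0 in every library, and so were 323 of 325 on the same strand. Among genes that share no bases with another gene, 12.3% were at 0. For these 7 genes 0 is therefore how every gene in such a position is listed, and it gives no level for them in NAc or mPFC. None of the 66 genes lies wholly inside another gene; 40 share no bases with one and 26 share some. Cntnap1 shares the largest part of its span (16.2%), and Cdh23, Nrxn2, Pcdh1 and Pcdh15 also share over 5%. How reads within introns or on either strand were counted is not given in the sources used here. The levels may therefore include reads from unspliced RNA, and they are compared between libraries and not between genes.

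**Figure D1:**
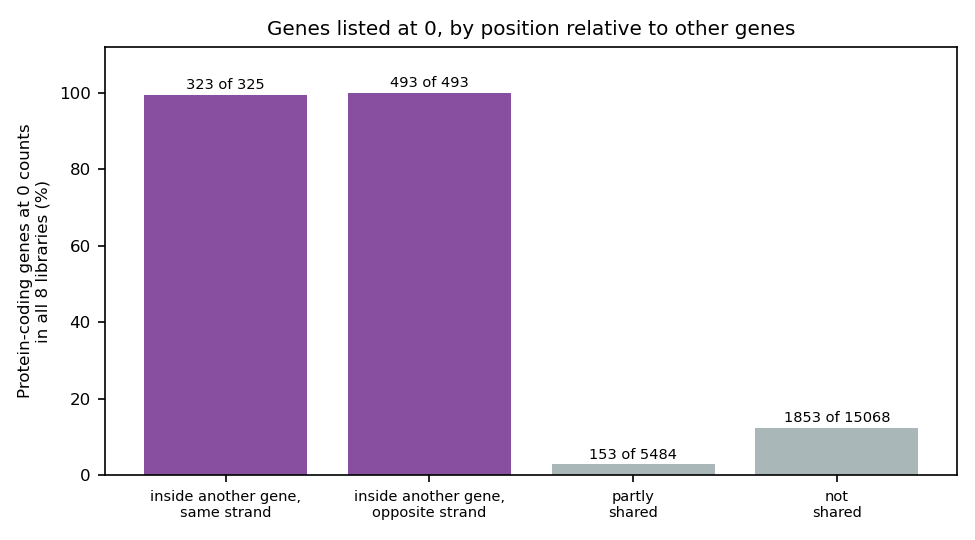
Share of protein-coding genes (%) with 0 counts in all 8 libraries, by their position relative to other genes of the tables on GRCm38. The bars for genes wholly inside another gene reach 99.38% (323 of 325, same strand) and 100% (493 of 493, opposite strand), against 2.79% of genes that share part of their span and 12.3% of genes that share none.

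The tissue labels were checked against marker genes. Markers of striatal projection neurons summed to 5499 and 2326 CPM in NAc after cocaine, to 6239 and 2012 CPM in NAc of home-cage mice, and to 826.5 to 935 CPM in the 4 mPFC libraries (CPM, counts per library size adjusted by edgeR's TMM factors). Both NAc libraries numbered 1 thus stood apart from both numbered 2, which had lower striatal sums and higher cortical sums. Markers of cortical glutamatergic neurons summed to 1462 and 1866 CPM after cocaine, 1318 and 2022 CPM in NAc home cage, and 2468 to 2687 CPM in mPFC. Of these 10 markers 2, Bcl11b and Rorb, ran the other way and were higher in NAc of home-cage mice. Bcl11b was at 484 and 380 CPM in NAc and 160 and 169 CPM in mPFC of home-cage mice, and so makes up a large part of the NAc sums. Rorb was at 91.8 and 118 CPM in NAc and 82.7 and 83.3 CPM in mPFC.

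The clearest pattern in the 66 genes was the difference between the regions. In home-cage mice 9 genes were higher and 11 lower in NAc than in mPFC at an adjusted p under 0.05 in edgeR's quasi-likelihood test. Thus 30.3% of the 66 passed, against 12.4% of all 18300 genes tested (7.01% higher, 5.35% lower). The 66 genes had a median total of 167845 counts, against 12027 over all symbols with at least 50. The part of this coverage in the shares that passed was not tested. The median log2 fold change of the 66 genes was -0.11 and their median absolute log2 fold change 0.43, against 0.01 and 0.26 over all genes. In 43 of them (65.2%; 18 higher, 25 lower) the 2 NAc and 2 mPFC libraries did not overlap, which was close to the 63.4% of all genes (32.2% higher, 31.2% lower). Among the genes that passed, the strongest contrasts were high Tenm3, Cdh4 and Slitrk6 and low Flrt2, Pcdh15, Cdh11 and Lrfn5 in NAc. These genes came from different families. Cdh1, with few counts, had a more negative log2 fold change (-1.92) but did not pass. In bulk tissue fewer cells of a type and less RNA per cell cannot be told apart. The striatal and cortical marker sums above differed between the regions along with these genes, and their part was not tested. None of the 20 calls was made when either mPFC home-cage library was left out (0 higher and 0 lower both times), whereas without NAc home-cage replicate 1 the counts were 21 higher and 25 lower, and without NAc home-cage replicate 2 they were 15 higher and 27 lower.

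The 4 libraries of exposed mice gave a second view of the regional difference, in which region and experience cannot be told apart. There 16 genes were higher and 15 lower in NAc after cocaine than in mPFC after defeat (47% of the 66, against 36.3% of all 18362 genes tested, 19.2% higher and 17.1% lower). The groups did not overlap in 51 of the 66 (77.3%; 22 higher, 29 lower), against 74.2% of all genes (37.3% higher, 36.9% lower). Of the 20 genes called in home-cage mice, 19 were called the same way in exposed mice (95% of the home-cage calls and 61.3% of the exposed calls). The exception, Cntn4, kept its sign. How often calls recurred over all genes was not computed, so these shares have no background to be read against. Over all 8 libraries, 16 genes had all 4 NAc libraries above all 4 mPFC libraries, 22 had all 4 below, and in 28 the regions overlapped. The regions thus did not overlap in 57.6% of the 66 (24.2% higher, 33.3% lower), against 47% of all 18418 genes tested in NAc (24.7% higher, 22.3% lower). Without mPFC defeat replicate 1 the exposed counts were 4 higher and 6 lower, without mPFC defeat replicate 2 they were 5 and 8, without NAc cocaine replicate 1 they were 22 and 20, and without NAc cocaine replicate 2 they were 19 and 27.

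**Figure D2:**
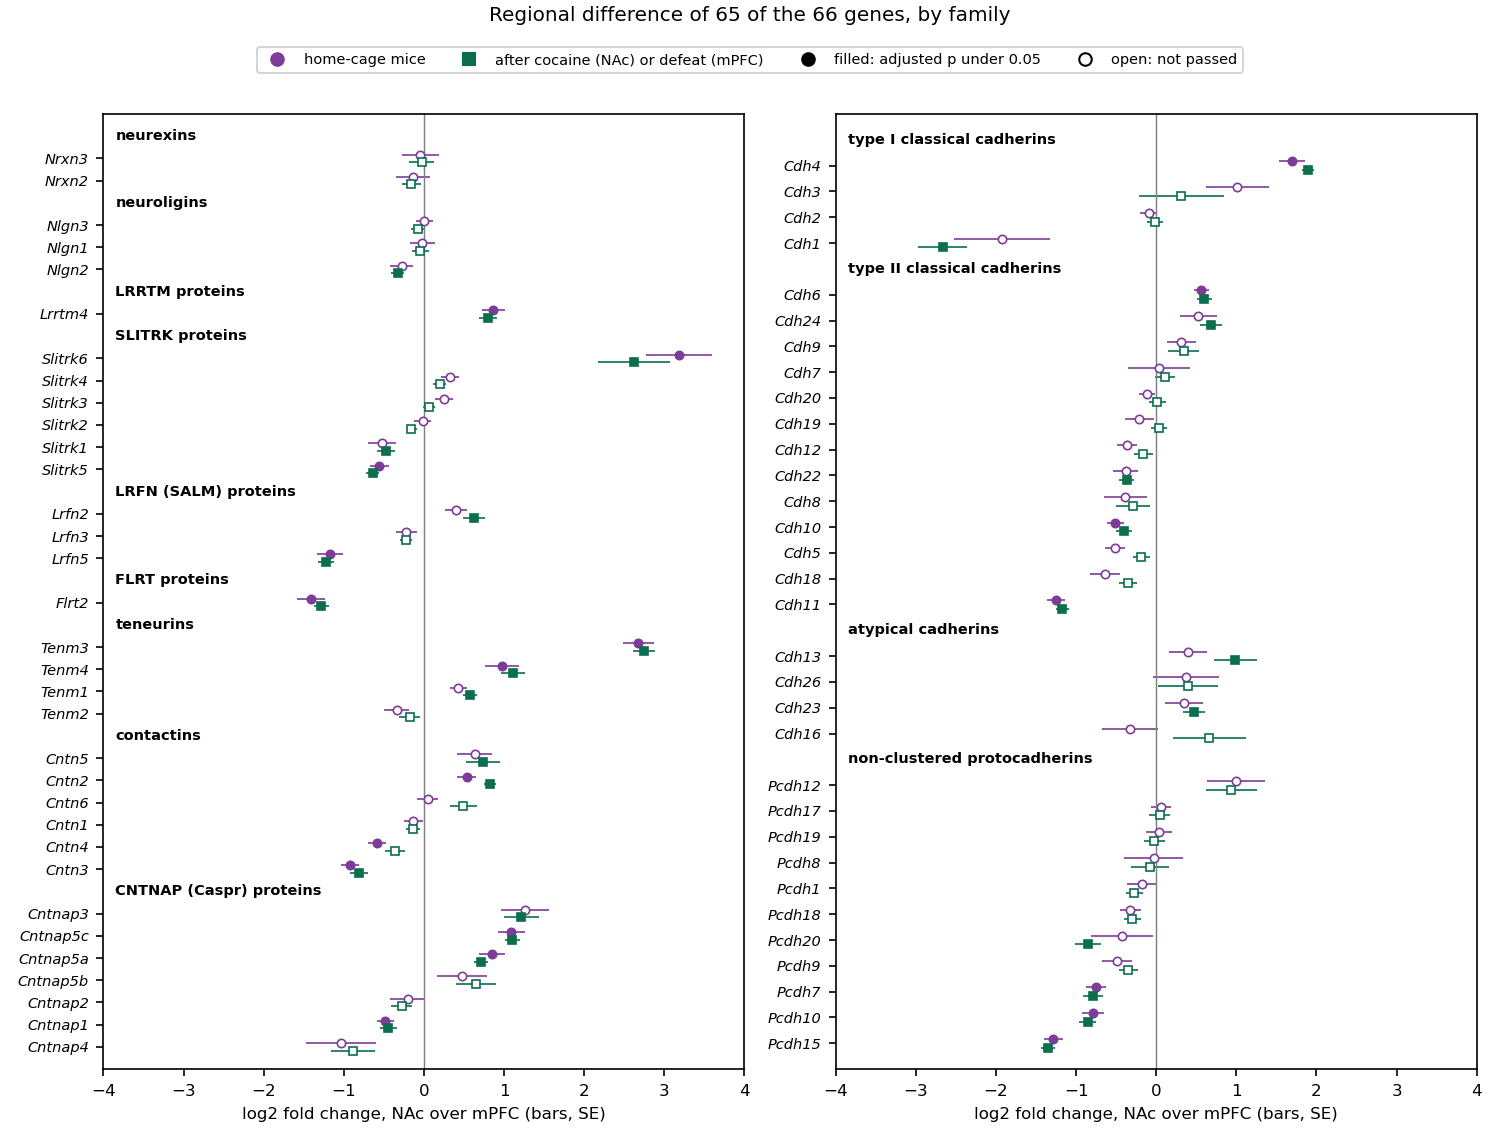
Log2 fold change of NAc over mPFC with its standard error for 65 of the 66 genes, by family, in home-cage mice (purple circles) and in mice after cocaine or defeat (green squares). Filled symbols passed an adjusted p under 0.05; Tenm3, Cdh4 and Slitrk6 lie farthest right among them, and Nlgn2 after cocaine or defeat (-0.32) is the only filled symbol among Nrxn2, Nrxn3 and the neuroligins.

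Teneurins, large transmembrane proteins with a role in matching axons to their targets, were led by Tenm3 (chr8:48227682-48843951, minus strand). The Tenm3 levels were 1157 and 1447 CPM in NAc cocaine and 1061 and 1467 CPM in NAc home-cage libraries, with 195 and 194 CPM in mPFC defeat and 198 and 196 CPM in mPFC home-cage libraries. All 4 NAc libraries lay far above all 4 mPFC libraries, which differed little among themselves. The NAc difference in home-cage mice was 6.40-fold (log2 fold change 2.68, SE 0.197, adjusted p = 0.00427), and in exposed mice the log2 fold change was 2.75. Tenm4 was also higher in NAc. In NAc Tenm4 reached 1659 and 1277 CPM after cocaine and 1682 and 1159 CPM in home cage, and in mPFC 647 and 709 CPM after defeat and 672 and 776 CPM in home cage. The regions did not overlap, and in both NAc groups the library numbered 1 was the higher one (log2 fold change 0.97, SE 0.212, adjusted p = 0.0450 in home-cage mice). Tenm1 passed in exposed mice (log2 fold change 0.58, SE 0.0873, adjusted p = 0.00679) and had a log2 fold change of 0.43 in home-cage mice, and Tenm2 passed in neither.

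SLITRK proteins are leucine-rich repeat receptors that induce presynaptic differentiation, and their regional differences ran both ways. Slitrk6 (chr14:110748580-110755149, minus strand), best known for its part in inner ear innervation, had the largest fold change of the 66 in home-cage mice but few counts. It had 250 and 127 counts in NAc after cocaine, 427 and 168 counts in NAc of home-cage mice, 36 and 23 counts in mPFC after defeat, and 28 and 21 counts in mPFC of home-cage mice. These are levels of 1.80 and 0.890 CPM in NAc cocaine, 2.41 and 1.21 CPM in NAc home-cage, 0.274 and 0.164 CPM in mPFC defeat and 0.206 and 0.190 CPM in mPFC home-cage libraries. Every NAc library lay above every mPFC library, and the NAc libraries numbered 1 lay above those numbered 2 (9.10-fold higher in NAc of home-cage mice; log2 fold change 3.19, SE 0.413, adjusted p = 0.0132). Slitrk5 was lower in NAc in both comparisons (log2 fold change -0.55, SE 0.118, adjusted p = 0.0425 in home-cage mice and -0.64 in exposed mice). Slitrk1 passed in exposed mice, with log2 fold changes of -0.47 there and -0.52 in home-cage mice, whose difference was not tested.

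**Figure D3:**
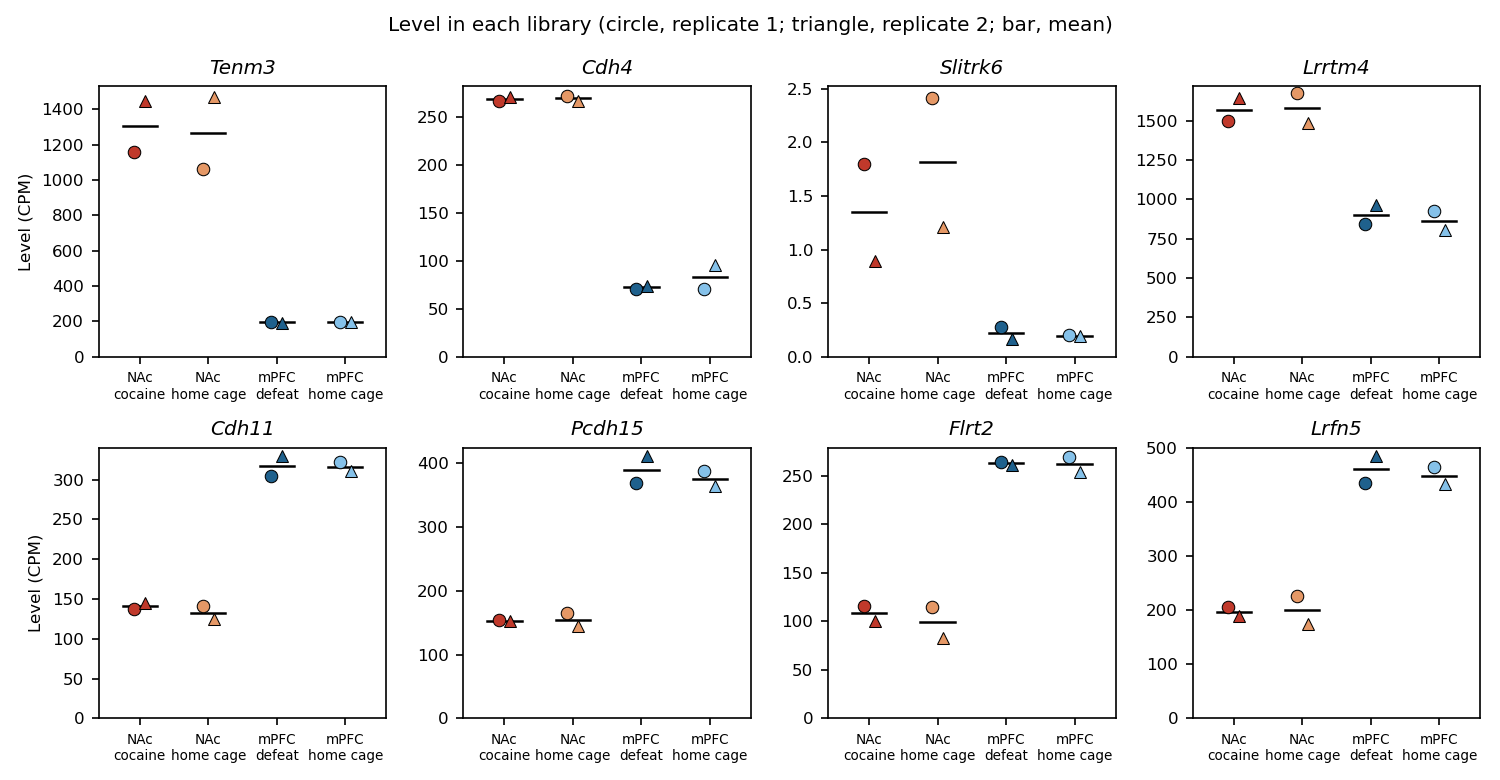
Level (CPM) of 8 genes in each library, with circles for replicate 1, triangles for replicate 2 and a bar at the group mean. In Tenm3, Cdh4, Slitrk6 and Lrrtm4 (top) every NAc point lies above every mPFC point, and in Cdh11, Pcdh15, Flrt2 and Lrfn5 (bottom) every NAc point lies below.

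Among the other leucine-rich repeat proteins, Lrrtm4, a postsynaptic protein that binds presynaptic heparan sulfate proteoglycans, was higher in NAc. Lrrtm4 was at 1497 and 1643 CPM in NAc after cocaine and 1676 and 1486 CPM in NAc of home-cage mice, against 844 and 963 CPM in mPFC after defeat and 925 and 804 CPM in mPFC of home-cage mice. The NAc libraries lay close together and apart from mPFC (log2 fold change 0.87, SE 0.147, adjusted p = 0.0249 in home-cage mice, and 0.80 in exposed mice). Flrt2, a ligand of Unc5 receptors and latrophilins in axon guidance and adhesion, was lower in NAc. The Flrt2 levels were 116 and 101 CPM in NAc cocaine and 115 and 82.7 CPM in NAc home-cage libraries, with 264 and 261 CPM in mPFC defeat and 269.5 and 253 CPM in mPFC home-cage libraries. All NAc libraries lay below all mPFC libraries, 2.65-fold in home-cage mice (log2 fold change -1.41, SE 0.179, adjusted p = 0.0127). Lrfn5, which binds receptor tyrosine phosphatases across the synapse, was lower in NAc as well. In NAc Lrfn5 reached 205 and 189.9 CPM after cocaine and 227 and 174 CPM in home cage, and in mPFC 436 and 486 CPM after defeat and 465 and 433 CPM in home cage. The regions again did not overlap (log2 fold change -1.17, SE 0.161, adjusted p = 0.0153 in home-cage mice, -1.22 in exposed mice). Its relative Lrfn2 ran the other way and passed in exposed mice only (log2 fold change 0.63, adjusted p = 0.0191 in edgeR's test). In home-cage mice Lrfn2 was at 0.40, and Lrfn3 passed in neither comparison.

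Promoter windows are shown for 2 genes higher and 2 genes lower in NAc, which were picked after their values were seen. The windows reach from 250 bases before to 50 bases after the start, in RefSeq sequence of GRCm38.p6, and 46 of the 66 genes had one. Capitals mark the cAMP response element TGACGTCA or the palindromic E-box CACGTG, both of which read the same on either strand and were added to the search after the sequences had been seen. The windows are chr8:48674641-48674940 (minus strand) for Tenm3, chr14:110755100-110755399 (minus strand) for Slitrk6, chr12:95691976-95692275 (plus strand) for Flrt2 and chr12:61522917-61523216 (plus strand) for Lrfn5.
Tenm3: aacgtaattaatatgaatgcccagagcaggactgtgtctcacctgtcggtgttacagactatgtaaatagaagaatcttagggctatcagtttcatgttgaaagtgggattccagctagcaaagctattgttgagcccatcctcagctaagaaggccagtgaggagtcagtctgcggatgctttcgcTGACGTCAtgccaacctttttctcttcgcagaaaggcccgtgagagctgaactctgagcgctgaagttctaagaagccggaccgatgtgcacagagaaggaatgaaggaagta
Slitrk6: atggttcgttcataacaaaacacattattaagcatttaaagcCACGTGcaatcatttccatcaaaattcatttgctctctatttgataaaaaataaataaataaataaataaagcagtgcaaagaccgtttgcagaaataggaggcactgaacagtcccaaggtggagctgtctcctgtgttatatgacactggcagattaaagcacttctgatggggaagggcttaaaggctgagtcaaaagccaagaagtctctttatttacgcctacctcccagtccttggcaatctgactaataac
Flrt2: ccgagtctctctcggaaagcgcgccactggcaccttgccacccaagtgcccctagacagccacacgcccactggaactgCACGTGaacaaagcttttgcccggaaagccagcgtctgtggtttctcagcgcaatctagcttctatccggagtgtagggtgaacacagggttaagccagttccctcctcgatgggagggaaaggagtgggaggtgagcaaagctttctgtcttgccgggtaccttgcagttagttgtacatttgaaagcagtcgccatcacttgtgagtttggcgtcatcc
Lrfn5: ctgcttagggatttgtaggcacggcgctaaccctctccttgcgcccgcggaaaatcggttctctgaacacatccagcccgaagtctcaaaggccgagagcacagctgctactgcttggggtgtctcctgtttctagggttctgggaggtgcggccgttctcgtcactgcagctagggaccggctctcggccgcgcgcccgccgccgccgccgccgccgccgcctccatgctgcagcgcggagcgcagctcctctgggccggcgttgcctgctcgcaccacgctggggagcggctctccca
The Tenm3 window lies inside the longer span that GENCODE gives the gene. TGACGTCA occurred in 1.79% and CACGTG in 7.15% of all 32851 promoter windows, and each in 2 of the 60 windows of the 66 genes. The MEIS core TGACAG (19.2% of all windows), the NEUROD-type E-box CAGATG (17.2%) and the T-box half-site GGTGTGA (3.98%), searched on both strands, occurred in none of the 4 windows. A match is only a run of letters, and no binding was measured.

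Classical cadherins differed between the regions gene by gene. Cdh4, or R-cadherin, which can pair with itself and with N-cadherin, was higher in NAc. Cdh4 was at 266 and 271 CPM in NAc after cocaine and 272 and 266 CPM in NAc of home-cage mice, against 70.1 and 74.2 CPM in mPFC after defeat and 71.1 and 95.1 CPM in mPFC of home-cage mice. The 4 NAc libraries differed by a factor of 1.02 between lowest and highest (log2 fold change 1.69, SE 0.166, adjusted p = 0.00730 in home-cage mice, 3.23-fold, and 1.90 in exposed mice). Cdh2, or N-cadherin, the main cadherin of excitatory synapses, was at 263 and 274 CPM in NAc and 288 and 284 CPM in mPFC of home-cage mice, and it passed in neither regional comparison (log2 fold changes -0.09 and -0.01). Cdh1, or E-cadherin of epithelia, was lower in NAc in exposed mice (log2 fold change -2.67, SE 0.310, adjusted p = 0.00348 in edgeR's test). It had 25 and 21 counts in NAc after cocaine against 109 and 177 counts in mPFC after defeat. In home-cage mice its log2 fold change was -1.92 (SE 0.600) and did not pass, with 13 and 33 counts in NAc and 57 and 82 counts in mPFC.

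Type II cadherins, which sort neurons of different nuclei and layers, had 1 gene higher and 2 lower in NAc of home-cage mice among 13. Over all genes tested, 7.01% were higher and 5.35% lower. Cdh11 had the most negative log2 fold change of the 13. The Cdh11 levels were 137 and 145 CPM in NAc cocaine and 141 and 125 CPM in NAc home-cage libraries, with 305 and 330.2 CPM in mPFC defeat and 322 and 311 CPM in mPFC home-cage libraries. No NAc library reached any mPFC library (log2 fold change -1.25, SE 0.116, adjusted p = 0.00686 in home-cage mice, -1.17 in exposed mice). Cdh10 was also lower (log2 fold change -0.51, SE 0.105, adjusted p = 0.0392), and Cdh6 was higher in NAc (log2 fold change 0.56, SE 0.0959, adjusted p = 0.0253). In exposed mice Cdh24 was called higher as well and Cdh22 lower, with log2 fold changes of 0.69 and -0.37. Their home-cage values, which did not pass, were 0.53 and -0.38. Of the atypical cadherins, the membrane-anchored Cdh13 and the hair-cell tip-link cadherin Cdh23 were called higher in NAc of exposed mice (log2 fold changes 0.99 and 0.47) but not of home-cage mice (0.40 and 0.34), and these differences between the comparisons were not tested.

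Non-clustered protocadherins were either lower in NAc or not called. In home-cage mice 3 of 11 were lower and 0 higher, against 5.35% lower and 7.01% higher of all genes. In exposed mice 4 of 11 were lower and 0 higher, against 17.1% lower and 19.2% higher of all genes. Values were positive in 3 of 11 and 2 of 11, the largest being those of Pcdh12 (0.99 and 0.94), which had few counts. Pcdh15, the tip-link partner of Cdh23 in the inner ear, had the most negative log2 fold change of the 11. In NAc Pcdh15 reached 154 and 152 CPM after cocaine and 165 and 145 CPM in home cage, and in mPFC 368 and 411 CPM after defeat and 387 and 365 CPM in home cage. All NAc libraries lay below all mPFC libraries, 2.43-fold in home-cage mice (log2 fold change -1.28, SE 0.122, adjusted p = 0.00692). Pcdh10, needed for the growth of striatal axons in the mouse embryo, was lower in NAc by 1.73-fold (log2 fold change -0.79, SE 0.137, adjusted p = 0.0266), and Pcdh7 by 1.68-fold (log2 fold change -0.75, SE 0.126, adjusted p = 0.0244). Pcdh20 was called lower in exposed mice (log2 fold change -0.85, adjusted p = 0.0127), and its home-cage value was -0.43, a difference that was not tested.

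Contactins, glycolipid-anchored immunoglobulin proteins of axons, were split. Cntn2, which joins Cntnap2 beside the nodes of myelinated axons, was higher in NAc. Cntn2 was at 198 and 209 CPM in NAc after cocaine and 166 and 189.9 CPM in NAc of home-cage mice, against 113 and 117 CPM in mPFC after defeat and 123 and 122 CPM in mPFC of home-cage mice. The regions did not overlap, and within NAc the cocaine pair was the higher (log2 fold change 0.53, SE 0.116, adjusted p = 0.0440 in home-cage mice, 0.82 in exposed mice). Cntn3 and Cntn4 were lower in NAc of home-cage mice (log2 fold change -0.93, SE 0.114, adjusted p = 0.0118 for Cntn3; log2 fold change -0.59, SE 0.117, adjusted p = 0.0362 for Cntn4). In exposed mice Cntn4 had a log2 fold change of -0.36 (adjusted p = 0.0678). Cntn5 was called higher in exposed mice (0.74, adjusted p = 0.0419 in edgeR's test), and its home-cage value, which did not pass, was 0.64.

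In the CNTNAP family, Cntnap5a and Cntnap5c were higher in NAc. They are mouse paralogs, and how reads shared between paralogs were counted is not known here. The Cntnap5c levels were 116 and 129 CPM in NAc cocaine and 102 and 138 CPM in NAc home-cage libraries, with 53.9 and 60.4 CPM in mPFC defeat and 57.9 and 54.5 CPM in mPFC home-cage libraries. The NAc libraries lay above the mPFC ones (log2 fold change 1.09, SE 0.168, adjusted p = 0.0198 in home-cage mice, 1.10 in exposed mice). For Cntnap5a the log2 fold change was 0.85 in home-cage mice (SE 0.160, adjusted p = 0.0319) and 0.72 in exposed mice. Cntnap1, which with Cntn1 forms the junctions beside nodes of Ranvier, was lower in NAc by 1.40-fold (log2 fold change -0.48, SE 0.107, adjusted p = 0.0460). Cntnap3 was called higher in exposed mice, with log2 fold changes of 1.22 there and 1.26 in home-cage mice. Markers of oligodendrocytes were positive in 10 of 10 in the home-cage comparison with 0 called, with summed levels of 2476 and 1404 CPM in NAc and 1559 and 1305 CPM in mPFC. In exposed mice 10 of 10 were called higher in NAc (median log2 fold change 0.98), with summed levels of 2654 and 2342 CPM in NAc and 1166 and 1273 CPM in mPFC. The part of these markers in the contactin and CNTNAP values of either comparison was not tested.

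The neurexin genes Nrxn2 and Nrxn3 and the 3 neuroligin genes did not pass the regional test in home-cage mice. Nrxn2 was at 589.5 and 856 CPM in NAc and 726 and 860.4 CPM in mPFC of home-cage mice (log2 fold change -0.13, SE 0.216, adjusted p = 0.715). Nrxn3 was at 3109 and 2003 CPM in NAc and 2709 and 2554 CPM in mPFC (log2 fold change -0.04, SE 0.234, adjusted p = 0.919). In both genes the NAc and mPFC libraries overlapped. Neuroligins, their postsynaptic partners, had log2 fold changes of -0.02 for Nlgn1 (SE 0.151), -0.28 for Nlgn2 (SE 0.144) and 0.01 for Nlgn3 (SE 0.103). Nlgn2, the neuroligin of inhibitory synapses, was the only one of these 5 genes called in exposed mice. There it was at 289.9 and 298 CPM in NAc and 381 and 356 CPM in mPFC (log2 fold change -0.32, SE 0.0828, adjusted p = 0.0306 in edgeR's test). It was not called in the fit of all 8 libraries. Cntnap2 passed in neither comparison (log2 fold changes -0.20 with SE 0.219 and -0.28 with SE 0.129). With 2 libraries a group these values do not show equal levels.

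A list of 73 genes that encode partners, ligands and intracellular binders of these proteins was followed alongside, of which 71 were tested and 2, Cbln1 and Lrrc4, were listed at 0. In home-cage mice 5 partners were higher and 8 lower in NAc, and in exposed mice 14 were higher and 18 lower. These are 18.3% of the 71 in home-cage mice, against 12.4% of all genes, and 45.1% in exposed mice, against 36.3% of all genes. The netrin receptors Unc5c (log2 fold change 0.83, adjusted p = 0.015) and Unc5d (0.75, adjusted p = 0.0153), which also bind FLRT proteins, were higher in NAc of home-cage mice, as was Nxph2 (0.92, adjusted p = 0.0224), which encodes a neurexophilin. Nectin3 (-1.35, adjusted p = 0.0057), an adhesion protein that works beside cadherins, was lower in NAc. Il1rap (-1.02, adjusted p = 0.0239), a ligand of receptor tyrosine phosphatases, and the calsyntenin Clstn1 (-0.85, adjusted p = 0.0361) were lower too. All p-values here are from edgeR's test adjusted over all genes tested. Neither experience changed any of the 71 partners at that threshold.

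Within NAc some of the 66 genes differed by the library's number in both treatments. Comparing number 1 with number 2, 8 of the 66 (12.1%) differed by more than 1.5-fold in the same direction in both treatments, against 7.22% of all 18418 genes (4.18% higher in number 1, 3.04% higher in number 2). In the libraries numbered 1, 5 genes were higher. Slitrk6 was 2.02-fold higher in number 1 after cocaine and 1.99-fold in home cage. The corresponding ratios were 1.74 and 1.94 for Cntnap5b, 1.61 and 1.87 for Cntnap3, 1.60 and 1.77 for Cdh8, and 1.55 and 1.54 for Cntn5. In the libraries numbered 2, 3 genes were higher, namely Cntnap4 (1.86-fold after cocaine, 2.63-fold in home cage), Pcdh8 (1.69-fold and 2.22-fold), an activity-regulated protocadherin, and Cdh13 (1.79-fold and 1.62-fold).

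These genes did not all lie on a line between NAc and mPFC. In 5 of the 8 (Slitrk6, Cntnap3, Cntnap4, Cntnap5b and Cntn5) the mean of number 2 lay between the mean of number 1 and that of mPFC. The share of all genes with such a place was not computed. For Cdh13 and Cdh8 number 2 lay farther from mPFC than number 1 did. In NAc Cdh13 reached 393 and 702 CPM after cocaine and 311 and 504 CPM in home cage, and in mPFC 273 and 279 CPM after defeat and 302 and 317 CPM in home cage. Both libraries numbered 2 exceeded all others. Cdh8 was at 162 and 101 CPM in NAc after cocaine and 148 and 83.6 CPM in NAc of home-cage mice, against 154 and 168 CPM in mPFC after defeat and 158 and 144 CPM in mPFC of home-cage mice. Here number 1 lay near mPFC and number 2 below every other library. For Pcdh8 number 2 lay beyond mPFC. The mean log2 level of striatal markers minus that of cortical markers was 2.14 and 0.129 after cocaine, 2.71 and 0.041 in home cage, and -3.22 to -3.17 in mPFC. The cortical markers in this difference include Bcl11b and Rorb, which were higher in NAc than in mPFC. The part of this difference in these genes was not tested.

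**Figure D4:**
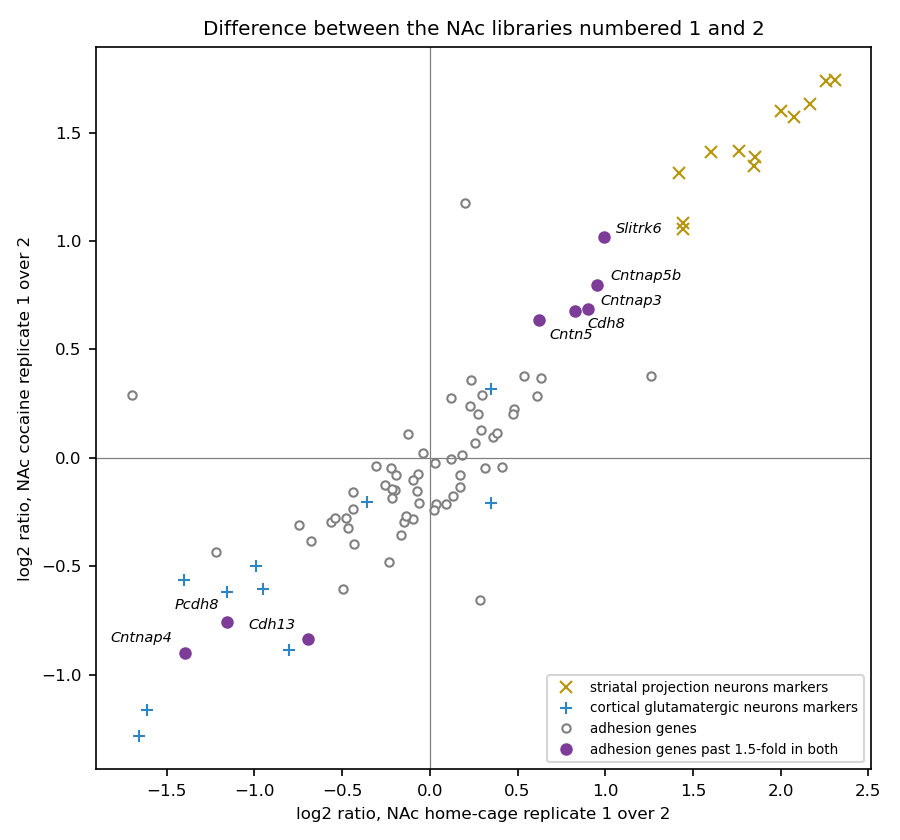
Log2 ratio of NAc replicate 1 over replicate 2 in home-cage mice (x axis) and after cocaine (y axis), for the 66 adhesion genes (circles; filled where past 1.5-fold in both) and for markers of striatal projection neurons and cortical glutamatergic neurons. The 5 filled genes at the upper right are higher in number 1 and the 3 at the lower left in number 2, and the striatal markers lie farther out than the adhesion genes.

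Cocaine conditioning changed none of the 66 genes in NAc at an adjusted p under 0.05 in edgeR's test (0 of 66, against 0% of 18418 genes). At an unadjusted p under 0.05 there was 1 gene among the 66, against 1.15% of all genes. DESeq2 also called 0 of the 66. The median absolute log2 fold change was 0.09, against 0.08 over all genes. In 11 genes (16.7%) the groups did not overlap, 8 of them higher and 3 lower after cocaine, against 23.7% of all genes (11.8% higher, 11.9% lower).

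The single gene with an unadjusted p under 0.05 was Cdh12, a type II cadherin of brain. The Cdh12 levels were 406 and 408 CPM in NAc cocaine and 334 and 307 CPM in NAc home-cage libraries, with 409 and 501 CPM in mPFC defeat and 438 and 387 CPM in mPFC home-cage libraries. Within NAc the cocaine libraries were the higher pair (log2 fold change 0.34, SE 0.108, adjusted p = 1; unadjusted p = 0.0295). The next smallest p-values among higher genes belonged to the endothelial Cdh5, to the contactins Cntn6 and Cntn4 and to the glial Cdh19. Their log2 fold changes were 0.30 for Cdh5 (SE 0.111), 0.40 for Cntn6 (SE 0.195), 0.24 for Cntn4 (SE 0.141) and 0.27 for Cdh19 (SE 0.137), and in all 4 genes the cocaine libraries were the higher pair. Cdh5 was at 9.35 and 8.66 CPM after cocaine and 7.02 and 7.66 CPM in home cage. Cntn6 was at 70.4 and 98.1 CPM after cocaine and 58.7 and 69.1 CPM in home cage. Negative values with the smallest p-values were those of Slitrk3 (-0.19, SE 0.115), Pcdh12 (-0.43, SE 0.355), Slitrk4 (-0.14, SE 0.120), Slitrk2 (-0.10, SE 0.0867) and Cntnap5a (-0.15, SE 0.158). Every one of these genes had an adjusted p of 1 in edgeR's test, rounded.

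By family, log2 fold changes after cocaine were positive in 6 of 6 contactins (median 0.16) and 4 of 4 teneurins (median 0.09), and negative in 5 of 6 SLITRK genes (median -0.12). They were positive in 9 of 13 type II cadherins (median 0.12) and negative in 8 of 11 non-clustered protocadherins (median -0.04) and 3 of 4 atypical cadherins (median -0.04), with 0 called in each family. Over all genes tested, 8762 of 18418 were positive. Markers of oligodendrocytes were positive in 10 of 10 with summed levels of 2654 and 2342 CPM after cocaine, against 2476 and 1404 CPM in home cage, so that home-cage replicate 2 lay below the other 3. Their part in the contactin values was not tested. Values of Nrxn2, Nrxn3 and the neuroligins lay between -0.09 and 0.03, with standard errors of 0.0938 (Nlgn3) to 0.280 (Nrxn3). Cdh2 was at 0.06 (SE 0.120) and Cntnap2 at -0.03 (SE 0.251).

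Social defeat changed 1 of the 65 genes tested in mPFC, a share of 1.54%, against 0.704% of 18027 genes (0.549% higher, 0.155% lower). This was Cdh1 (chr8:106603351-106670246, plus strand), the epithelial cadherin, which was 1.83-fold higher after defeat (log2 fold change 0.87, SE 0.224, adjusted p = 0.0378 in edgeR's test). It had few counts, 109 and 177 after defeat and 57 and 82 in home cage. The lower defeat library was above the higher home-cage library, at 0.829 and 1.26 CPM after defeat and 0.420 and 0.742 CPM in home cage. Cdh1 was not called by DESeq2, in a fit of all 8 libraries, without defeat replicate 2 or without home-cage replicate 1 (0 genes higher each time).

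Markers of cells other than neurons were set beside Cdh1. Blood cell markers summed to 58.3 and 53 CPM after defeat, against 19.5 and 19.7 CPM in home cage, and 3 of the 3 tested were called higher. Meningeal fibroblast markers summed to 21.3 and 24.6 CPM after defeat, against 15.4 and 24.7 CPM in home cage, with 5 of 5 tested positive, 0 called and 2 of the 7 listed (Igf2 and Ogn) at 0. Choroid plexus and ependymal markers summed to 5.09 and 6.40 CPM after defeat, against 4.69 and 5.17 CPM in home cage, with 3 of 4 tested positive and 0 called. The other lists of such markers ran mostly negative. Positive values were found in 0 of 10 oligodendrocyte, 0 of 6 microglial and 1 of 4 oligodendrocyte precursor markers tested. They were found in 2 of 7 astrocyte and 3 of 9 endothelial and mural markers, with 0 called in each of these lists. The part of any of these lists in the Cdh1 value was not tested.

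No other gene passed after defeat. The median absolute log2 fold change of the 65 genes was 0.05, against 0.08 over all genes, and 4 had an unadjusted p under 0.05, against 7.14% of all genes. In 11 (16.9%) the groups did not overlap, 2 of them higher and 9 lower after defeat, against 34.2% of all genes (16.4% higher, 17.8% lower). Cdh16, a kidney cadherin, had 19 and 9 counts after defeat and 24 and 28 counts in home cage (log2 fold change -1.03, SE 0.420, adjusted p = 0.478). For Cdh4 the log2 fold change was -0.20 with an SE of 0.0849 (adjusted p = 0.531), at 70.1 and 74.2 CPM after defeat and 71.1 and 95.1 CPM in home cage. It was called lower when home-cage replicate 1 was left out, and home-cage replicate 2 was the library above the other 3. Cdh13 (-0.16, SE 0.0793), Cdh7 (-0.12, SE 0.0808) and Cdh23 (-0.18, SE 0.118) followed among negative values. Among positive ones Cdh12 (0.14, SE 0.0862), Cdh8 (0.09, SE 0.0772), Pcdh7 (0.08, SE 0.0832) and Pcdh9 (0.07, SE 0.0862) came after Cdh1. Nrxn2, Nrxn3, the neuroligins, Cdh2 and Cntnap2 lay between -0.05 and 0.06, with standard errors of 0.0783 to 0.0841.

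**Figure D5:**
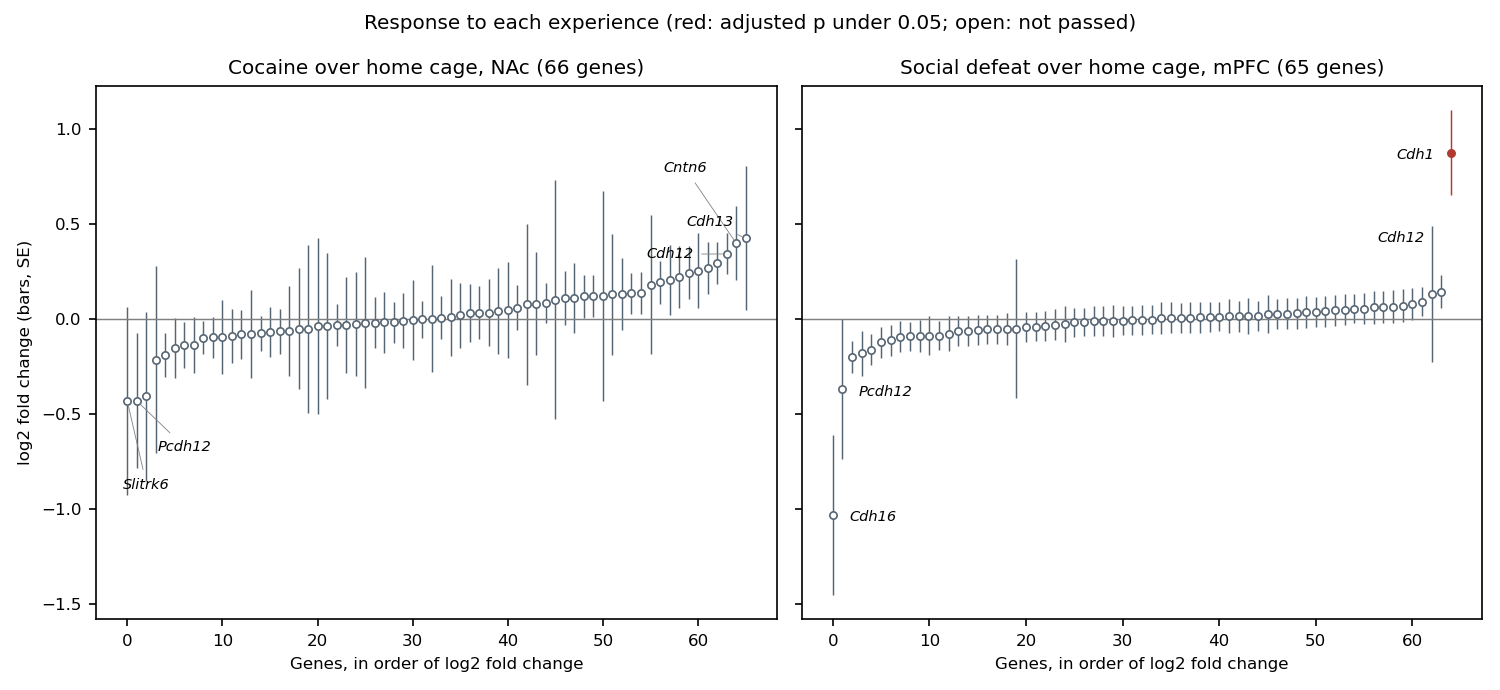
Log2 fold change with its standard error for each gene, in order of size, for cocaine over home cage in NAc (left) and social defeat over home cage in mPFC (right). Cdh1 after defeat (red, 0.87) is the only gene past an adjusted p under 0.05. The bars are longer in NAc for most genes, though not for Cdh16, Cdh26 and Pcdh12.

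The 2 responses themselves were compared as the cocaine response in NAc minus the defeat response in mPFC. The difference passed for 0 of the 66 genes, against 0% of all 18783 genes. At an unadjusted p under 0.05 there were 0 of the 66, against 2.21% of all genes. DESeq2 also called 0 of the 66. Region and experience cannot be told apart in this difference. The smallest p-value was that of Cntn2 (difference of log2 fold changes 0.29, SE 0.123, unadjusted p = 0.0523, adjusted p = 1 in edgeR's test, rounded). Cdh5 (0.33, SE 0.155), Cntn6 (0.44, SE 0.236), Cdh16 (0.98, SE 0.596) and Cdh13 (0.59, SE 0.417) followed among positive differences. The negative ones with the smallest p-values were Slitrk3 (-0.18, SE 0.131), Slitrk2 (-0.14, SE 0.113), Cdh3 (-0.70, SE 0.702), Cdh1 (-0.74, SE 0.757) and Slitrk4 (-0.13, SE 0.142). The differences were positive in 13 of 13 type II cadherins, 4 of 4 teneurins, 4 of 4 atypical cadherins and 5 of 6 contactins. They were negative in 9 of 11 non-clustered protocadherins, 5 of 6 SLITRK genes and 3 of 3 neuroligins. Differences were positive in 39 of the 66 genes and in 9370 of all 18783, with 0 called in any family. Differences for Nrxn2, Nrxn3, the neuroligins, Cdh2 and Cntnap2 lay between -0.09 and 0.07.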

How the data were processed

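Total RNA was extracted with a QIAGEN kit and made into total RNA libraries, per the labels' protocols. The authors aligned reads to mm10 with STAR 2.7.1a and counted them per gene symbol with featureCounts, per the submitters' processing notes; the sources used here give neither annotation nor options. The deposited tables hold raw counts, 1 table per region, with 33885 symbols each and no rows without a gene. Replicate numbers in NAc come from the titles, and those in mPFC are only names.

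Counts were tested with edgeR 4.0.16 in R 4.3.3 (filterByExpr, TMM, estimateDisp, glmQLFit, glmQLFTest) on the libraries of the groups compared, or all 8 for the difference of responses. P-values were Benjamini-Hochberg adjusted over all genes tested, with a threshold of 0.05. Levels are CPM with TMM factors over the 8 libraries; SE is the absolute log2 fold change over the square root of F. Scripts were tested on simulated data. Alternatives were RLE factors, DESeq2 1.42.0, no low-count filter, each library left out, all 8 libraries in 1 fit, and the number as a block. An exact permutation test of 2 against 2 libraries cannot give a two-sided p below 0.33 and was not used. Coordinates are GENCODE M21 (GRCm38); 32962 symbols matched. Tables and plots used python 3.11.15.

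The 66 genes, marker lists and partner list were chosen with earlier results of these data known. Named are all genes that passed and, in the treatment comparisons and their difference, the 5 smallest p-values in each direction. In home-cage regions the rule took up to 12 genes in each direction that passed, did not overlap and averaged at least 1 CPM in a region; the same genes are given for exposed mice. Added to these were Nrxn2, Nrxn3, Nlgn1 to Nlgn3, Cdh2 and Cntnap2 throughout, genes that differ by number in NAc by over 1.5-fold in both treatments, and the 3 partners with the smallest p in each direction. Other genes were named after their values were seen. The values of 1 of the 66 genes are not reported here.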

Additional observations from a re-analysis of the deposited data

How the results depend on the processing

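With 2 libraries a group, the counts of calls depended on which libraries were used. The count called higher after defeat was 0 with DESeq2 and 0 with all 8 libraries in 1 fit. Leaving out 1 library at a time, it ranged from 0 to 1, as did the count called lower after defeat. In these fits the lone library of a group is assumed to vary like the other group. The regional counts in home-cage mice ranged from 0 to 21 higher and from 0 to 27 lower in NAc, and those in exposed mice from 4 to 22 higher and from 6 to 27 lower. RLE factors, DESeq2, no low-count filter and all 8 libraries in 1 fit kept all 20 home-cage calls. RLE factors, DESeq2 and no low-count filter also kept all exposed calls. With all 8 libraries in 1 fit, 13 of the 16 higher and 11 of the 15 lower exposed calls were kept. Those lost were Cdh23, Cdh24, Cntn5, Cdh22, Nlgn2, Pcdh20 and Slitrk1. Among the adhesion genes, cocaine and the difference of responses had 0 calls in every alternative run. Counts over other genes in those runs are not reported here.

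The numbers in NAc are not known to pair libraries, and deviations from the group means of same-numbered NAc libraries correlated at 0.609 over 18418 genes (0.078 for home-cage NAc and mPFC). With the replicate block, cocaine had 0 adhesion genes higher and 0 lower. Home-cage NAc had 8 adhesion genes higher (7 of the 9 shared) and 11 lower (9 of the 11 shared). The numbers in mPFC are only names, so the block is arbitrary in the regional comparison. The calls it kept or lost there do not show how stable the calls are. The cause of these changes was not tested.

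Some log2 fold changes that had not passed changed sign. Without the low-count filter Nrxn3 was at -0.0018 for cocaine and -0.0030 for the difference of responses. The others did so when 1 library was left out, with the following ranges. For defeat in mPFC the ranges were Cdh12 -0.0098 to 0.2842, Pcdh7 -0.0202 to 0.1709, Pcdh9 -0.0481 to 0.1871, Cdh4 -0.3923 to 0.0192 and Nrxn2 -0.1676 to 0.0697. For the same comparison the ranges were Nrxn3 -0.0665 to 0.0436, Nlgn1 -0.0152 to 0.1378, Nlgn2 -0.0847 to 0.0104, Nlgn3 -0.0490 to 0.0726, Cdh2 -0.0313 to 0.0061 and Cntnap2 -0.0255 to 0.1217. For cocaine in NAc the ranges were Cntnap5a -0.3242 to 0.0397, Nrxn2 -0.3229 to 0.2140, Nrxn3 -0.2808 to 0.3554, Nlgn1 -0.0927 to 0.1677 and Nlgn2 -0.2330 to 0.0696. For the same comparison the ranges were Cdh2 -0.0450 to 0.1587 and Cntnap2 -0.3051 to 0.3084. For NAc against mPFC in home-cage mice the ranges were Nrxn2 -0.4346 to 0.1139, Nrxn3 -0.3908 to 0.2335, Nlgn1 -0.1472 to 0.1014, Nlgn3 -0.0157 to 0.0304 and Cntnap2 -0.5354 to 0.0662. For the same in exposed mice the ranges were Nrxn3 -0.2220 to 0.1423, Nlgn1 -0.1211 to 0.0306 and Cdh2 -0.1275 to 0.0850. For the difference of responses the ranges were Cdh1 -1.4144 to 0.2831, Nrxn2 -0.2800 to 0.2687, Nrxn3 -0.2687 to 0.3553, Nlgn1 -0.1544 to 0.0940 and Nlgn2 -0.2068 to 0.1077. For the same comparison the ranges were Cdh2 -0.0396 to 0.1756 and Cntnap2 -0.3534 to 0.2480.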
